A study of Homo sapiens with 21 samples.

Results

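The genes described here are 30 targets of the tumour suppressor p53, followed in a human liver cancer line across a caffeine dose series. They were chosen by name as a module of p53 targets, and all 30 were found by symbol among the 37637 features of the count table. By role, 5 act in cell cycle arrest, 10 in apoptosis or its control, 4 in DNA repair, 4 in feedback on p53 itself, and 7 in metabolism or other functions. The choice used no measured values, but it was made with earlier results of these data known.

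HepG2 is an established human liver cancer line. All cultures were washed and then held for 24 h in serum-free DMEM, a standard culture medium. The 6 treated groups received caffeine at 0.01, 0.1, 1, 10, 100 or 1000 µM in that medium, and the control group received the medium with 0 µM. Each of the 7 groups has 3 libraries, 21 in all, which the series calls biological replicates. No source used here says whether the cultures were grown on separate days, so p-values measure the spread between these libraries, which may be technical in part. Every group is the same tumour line without serum, so no comparison speaks of normal hepatocytes or of growing cultures in serum.

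p53 is a transcription factor that is kept scarce by MDM2, an E3 ligase that marks it for degradation, and by the related protein MDM4. When DNA damage kinases such as ATM, ATR and CHEK2 act on p53 and MDM2, p53 accumulates and binds a paired half-site in its target genes, which then stop the cell cycle, repair DNA, adjust metabolism or start apoptosis. Because MDM2 and PPM1D are themselves targets, the response is self-limiting. Caffeine is a methylxanthine that blocks adenosine receptors and has long been used in cell culture at high concentration to inhibit ATM and ATR.

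Library totals ran from 23502519 to 44815552 counts. The 21 libraries fell into 3 sets by the relative counts of their 13 mitochondrial mRNAs, and these sets cut across the doses. Set A (11 libraries) took in the whole of the 3 lowest groups, from control to 0.1 µM, plus 1 µM replicates 1 and 2; mitochondrial mRNAs made up 9.95 to 14.2% of its counts. Set B (7 libraries, 4.72 to 4.95%) took in the 10 µM group, 1 µM replicate 3, 100 µM replicate 2 and 1000 µM replicates 1 and 2. Set C (3 libraries, 11.8 to 12.8%) took in 100 µM replicates 1 and 3 and 1000 µM replicate 3. The labels name no batch, so the sets are described only as what the counts show. Comparisons with the control were therefore also fitted with the library set as a term, and 1000 µM was compared with 10 µM inside set B alone. The liver identity of the cells was visible in 10 hepatocyte and hepatoma markers, whose summed level was 35788 to 44334 CPM (counts scaled to the library's size) in control libraries and 29557 to 31588 CPM at 1000 µM. The sum joins genes that moved apart at 1000 µM, where 5 of the 10 were called lower and 2 higher than in control: ALB (albumin) averaged 12470 CPM in control and 6334 CPM at 1000 µM, AFP (alpha-fetoprotein) 5365 and 2037 CPM, and APOB (apolipoprotein B) 8277 and 13510 CPM. The fibroblast collagens COL1A1, COL1A2 and COL3A1 with DCN and LUM, the endothelial genes VWF and CDH5, and the leukocyte gene PTPRC were each under 1 CPM in every library, and CD3E had 0 counts. Exceptions were PDGFRB, at 3.52 ± 0.308 CPM (SD, n = 3) in control and 20.02 ± 2.99 CPM at 1000 µM, and CD68, at 47.6 ± 7.14 and 27.5 ± 16 CPM. Their part in the results was not tested.

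Promoter sequences were searched for likeness to a p53 site close to a start. Promoter sequence, 250 bases upstream of each start in RefSeq on GRCh38.p14, was at hand for 24 members in 35 windows, not for GADD45A, TNFRSF10A, TNFRSF10B, TP53INP1, PHLDA3 and RRM2B. Windows were searched for the p53 half-site, a palindromic 10-base motif with a fixed core C and G, so that both strands were read. A full site is a pair of half-sites, 20 bases, with up to 13 bases between them. With at most 2 mismatches, 5 of 35 member windows held one (14.3%), against 875 of 35116 windows of all genes (2.49%). With at most 3 mismatches, these shares were 22.9% and 10.7%. A match is a likeness of letters, not a measured binding event. More than 1 window can cover the same site, as overlapping MDM2 windows do among these 5. The best sites of all 7 members with at most 3 mismatches are printed, AEN, FAS, FDXR and MDM2 with 2 mismatches and PLK2, SESN1 and ZMAT3 with 3; capitals mark the half-sites, and each is written 5′ to 3′ on its gene's strand.
AEN, chr15:88621306-88621325, plus strand, in a UTR exon: GGGCTTGCCCGGGCATGTGG
FAS, chr10:88991309-88991328, plus strand, in an exon of FAS and a UTR exon of ACTA2: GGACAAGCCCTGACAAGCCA
FDXR, chr17:74872996-74873025, minus strand, in a UTR exon: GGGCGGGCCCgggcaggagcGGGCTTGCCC
PLK2, chr5:58460196-58460218, minus strand, in a UTR exon: AGACTTGCTTcccGGCCACGCGC
ZMAT3, chr3:179071867-179071892, minus strand, in a UTR exon: GGGCCTGCTCcgccaaGCACATGCGC
SESN1, chr6:109009018-109009037, minus strand, in an intron: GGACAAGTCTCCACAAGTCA
MDM2, chr12:68808767-68809001, plus strand, the exon-free stretch before its internal promoter's start, with the site at chr12:68808923-68808942 in an intron: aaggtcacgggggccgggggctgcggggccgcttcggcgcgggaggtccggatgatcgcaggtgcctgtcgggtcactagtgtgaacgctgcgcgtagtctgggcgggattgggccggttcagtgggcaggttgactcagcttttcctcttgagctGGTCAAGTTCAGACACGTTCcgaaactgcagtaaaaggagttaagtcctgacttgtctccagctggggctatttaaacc
The half-sites are 10 bases apart in FDXR, 6 in ZMAT3 and 3 in PLK2, while those of AEN, FAS, SESN1 and MDM2 abut. The MDM2 site lies 74 bases before this start. At 1000 µM against control FAS, FDXR, SESN1, PLK2 and ZMAT3 were called lower, PLK2 and ZMAT3 not under every alternative, and neither MDM2 nor AEN was called; inside set B, described later, MDM2 was called higher and AEN lower.

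Before any caffeine, the members differed widely in level. Per kilobase of exon, GDF15 stood highest in control at 135 ± 15.1 CPM per kb (SD, n = 3), followed by CCNG1 at 104 ± 19.8, and their libraries overlapped (119 to 149 against 88.0 to 126 CPM per kb). TNFRSF10B at 41.4 ± 2.02 and CDKN1A at 40.9 ± 4.36 CPM per kb overlapped as well, as did FDXR, GADD45A, BAX and MDM2, all between 25.6 and 28.5 CPM per kb. BTG2 was at 6.71 ± 0.531 CPM per kb, and MDM4 and PLK2 were lowest at 1.60 ± 0.183 and 1.26 ± 0.185 CPM per kb.

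No p53 target was called up to 1 µM. The threshold was an adjusted p of 0.05 in edgeR's quasi-likelihood test, and at 0.01, 0.1 and 1 µM 0 of the 30 members passed it. Over all 17951 features tested the share called was 0.0279%, 0% and 0.106%. An unadjusted p under 0.05 was found for 6, 4 and 5 members at these doses, against 15%, 9.48% and 15.7% of all features. DESeq2 called 3, 0 and 1, against 2.19%, 0.284% and 2.37% of features. Its 3 at 0.01 µM were 1 arrest gene, higher, and 1 repair and 1 feedback gene, both lower. The 1 at 1 µM was a feedback gene, lower. Fitted with the set as a term, RRM2B, CCNG1 and ZMAT3 were called lower at 0.01 µM (2.18% of all features lower) and RRM2B at 1 µM (0.479% lower). Among set A libraries alone no member was called at any of the 3 doses, against 0.104%, 0% and 0% of features. FAS, RRM2B, CCNG1 and ZMAT3 were the 4 at 0.1 µM, and all of them were also among the 6 at 0.01 µM, in comparisons that share their control libraries. CCNG1 had the largest difference, -0.52 ± 0.12 on the log2 scale (± SE throughout) at 0.01 µM, with 272.5, 301.8 and 390.3 CPM in control against 206.7, 232.9 and 231.4 CPM.

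At 10 µM, 6 members were called, 4 higher and 2 lower, against 14.8% of all features (7.27% higher, 7.49% lower). The proapoptotic BAX was at 67.3, 71.9 and 61 CPM in control and 95.3, 105 and 88 CPM at 10 µM, a log2 change of 0.53 ± 0.14 (adjusted p = 0.0181). The apoptosis inhibitor TRIAP1 (0.46 ± 0.141), SUSD6 (0.41 ± 0.108) and the mitochondrial quality gene SPATA18 (0.25 ± 0.0786) were higher too, and the phosphatase gene PPM1D (-0.35 ± 0.0908) and the stress cytokine GDF15 (-0.63 ± 0.18) were lower. In none of the 6 did the 10 µM libraries overlap the controls, but they were picked by this same comparison, so that adds no support. The share of all features without overlap was not counted. All 10 µM libraries belong to set B and all controls to set A, so dose and set cannot be told apart between these libraries alone. Fitted with the set as a term, edgeR called no member (0.0279% of all features), and 2 had an unadjusted p under 0.05 (4.94% of all features). BAX and TRIAP1 turned sign, to -0.014 and -0.007. In that fit the step from set A to set B comes from the 1 µM group alone, where only 1 library is of set B. Inside the 1 µM group the set B library had BAX at 105.7 CPM, against 80.8 and 64.5 CPM in the set A libraries, and GDF15 at 223.5 against 338.6 and 353.3 CPM. The count also moved with single libraries: it was 3 without control replicate 1 or 3 (9.39% and 10.4% of all features called), 1 without replicate 1 or 2 of 10 µM (5.63% and 6.54%), 2 without replicate 3 of 10 µM (6.98%) and 9 without replicate 3 of 1000 µM (19.1%).

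At 100 µM most p53 targets were called lower, though fewer once the set was a term. Of the 30, 18 were lower than in control and none was higher, against 22.9% of all features lower and 23.6% higher (46.6% called). The median log2 change was -0.42 over the members and -0.012 over all features, and with the set as a term -0.40 and -0.025. By role, 4 of 5 arrest genes, 6 of 10 apoptosis genes, 2 of 4 repair genes, 1 of 4 feedback genes and 5 of 7 metabolism and other genes were lower. TIGAR (-1.20), TP53INP1 (-1.17), GDF15 (-1.05) and GADD45A (-0.98) had the most negative log2 changes. Once the set was a term, 7 stayed called, all lower, against 8.21% of features lower (17.3% called): GADD45A, BBC3, TP53INP1, ZMAT3, RRM2B, TIGAR and FDXR. As bulk RNA was measured, fewer cells that express a gene and less RNA per cell cannot be told apart, here and at 1000 µM.

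At 1000 µM the module split. Of the 30 members, 18 were lower than in control and 3 were higher, GDF15, TNFRSF10B and SUSD6, against 29.1% of all features lower and 28.5% higher (57.6% called). The median log2 change was -0.53 over the members and -0.007 over all features, and over the 10 hepatocyte and hepatoma markers it was -0.51. All 4 repair genes were lower, as were 4 of 5 arrest genes and 5 of 10 apoptosis genes, while the feedback genes divided, with PPM1D lower and MDM2, MDM4 and CCNG1 not called. The fit with the set as a term called 20, 19 of them in common with the fit without it: SUSD6 and PLK2 were lost and TRIAP1 was gained as lower (38% of features called, 18.2% higher and 19.8% lower). In the joint test of all 6 doses 29 of 30 members passed, MDM4 being the exception (adjusted p = 0.0577), against 73.6% of all features, and 26 passed with the set as a term (59.8%).

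**Figure D1:**
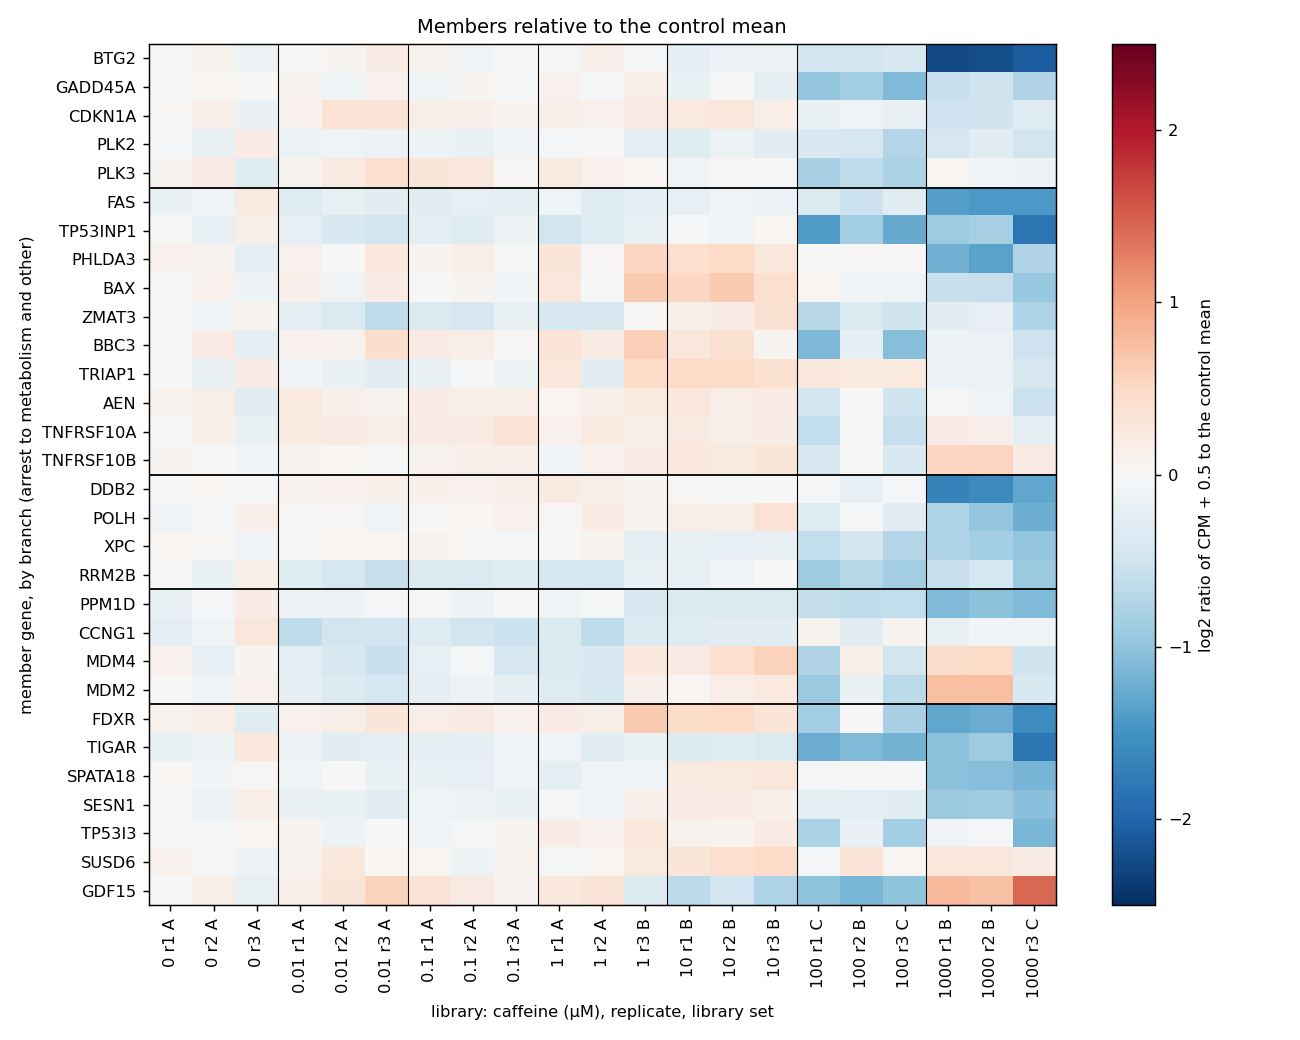
Each member's level in each of the 21 libraries as the log2 ratio of CPM + 0.5 to the control mean; rows are genes grouped by role, columns are libraries named by dose in µM, replicate and library set. Blue fills most rows at 1000 µM, deepest for BTG2, while GDF15 is red there and MDM2 is red in the pair of set B libraries only.

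Between 100 and 1000 µM members moved both ways. At 1000 µM 13 were lower and 6 higher than at 100 µM, against 22.3% and 21.8% of all features (44% called), and the same 19 were called with the set as a term (46.3%, 22.4% higher and 23.9% lower). The higher ones were GADD45A, PLK3, TNFRSF10A, TNFRSF10B, MDM2 and GDF15. Median log2 differences were 0.13 for arrest, 0.07 for apoptosis, -0.54 for repair, 0.22 for feedback and -0.002 for metabolism and other genes. With the set as a term they were 0.087, -0.15, -0.62, 0.10 and -0.19, so that the apoptosis median turned sign. Each of sets B and C holds libraries of both doses, so the difference can be read inside each: 14 members were lower at 1000 µM in both sets, 9 were higher in both, and 7 had opposite signs. Over all features tested these shares were 36.8% lower in both and 37.7% higher in both. The opposite signs were those of TP53INP1, ZMAT3, RRM2B, CCNG1, TIGAR, TP53I3 and SUSD6, none of which was called between the doses.

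**Figure D2:**
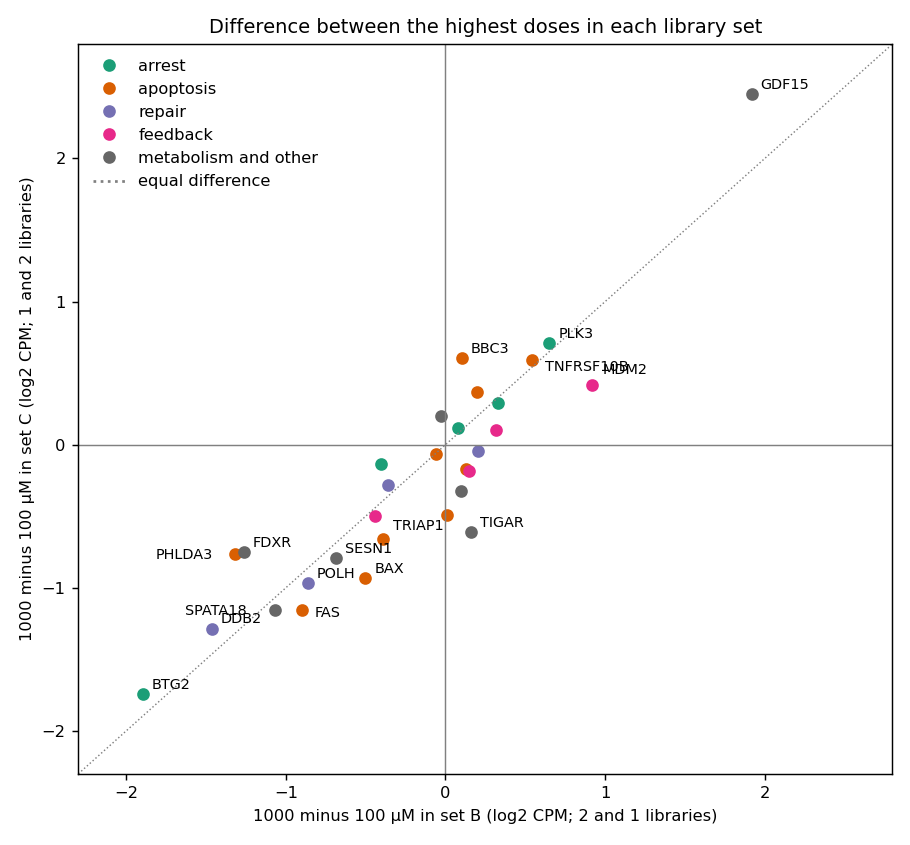
Difference of 1000 µM minus 100 µM in log2 CPM for each member, inside set B (horizontal; 2 and 1 libraries) and inside set C (vertical; 1 and 2 libraries), coloured by role, with the dotted line marking equal differences. BTG2 and DDB2 lie far down the line and GDF15 far up it, and members near the centre carry the opposite signs.

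Set B also allowed a test that needs no other library, of its 2 libraries at 1000 µM against its 3 at 10 µM. There 21 members were lower and 4 higher, against 33.6% and 31.5% of the 18323 features tested (65.1% called), with a median log2 change of -0.58 over members, -0.018 over all features and -0.72 over the hepatocyte and hepatoma markers. All 4 repair genes, 8 of 10 apoptosis genes, 3 of 5 arrest genes and 5 of 7 metabolism and other genes were lower. The higher ones were TNFRSF10B, MDM2, CCNG1 and GDF15.

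**Figure D3:**
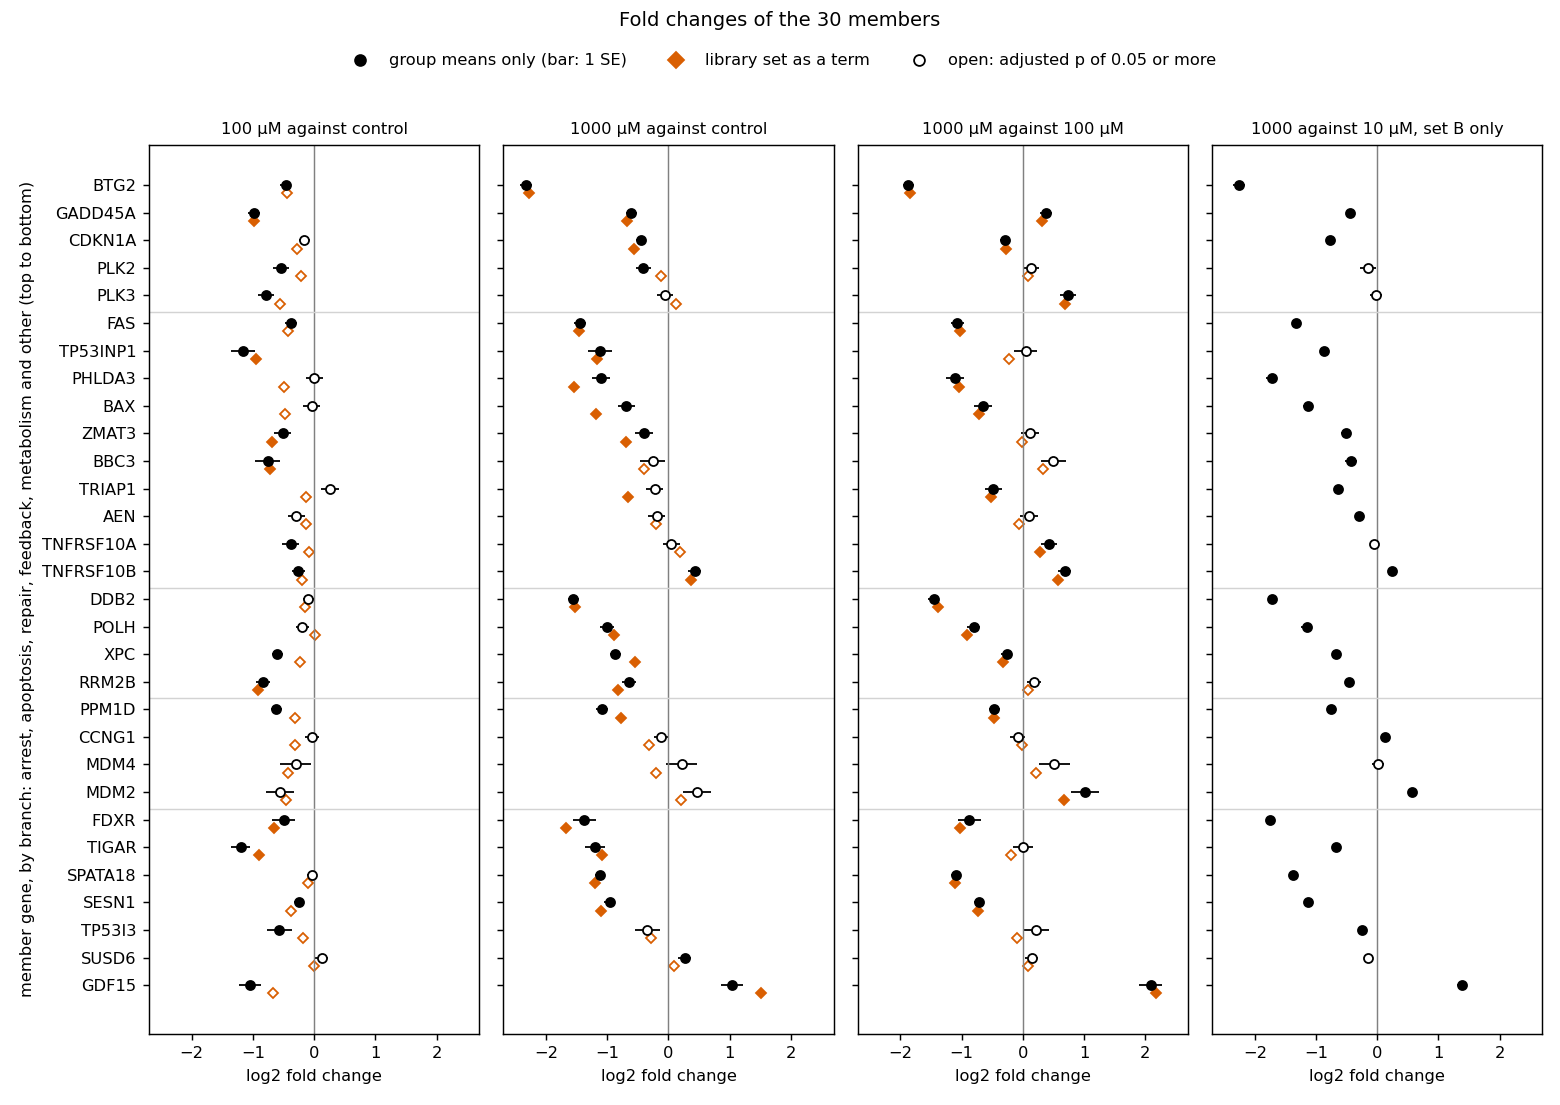
Log2 fold change of each of the 30 members in 4 comparisons, with circles for the fit by group means (bars: 1 SE), orange diamonds for the fit with the library set as a term, and open symbols for an adjusted p of 0.05 or more. BTG2, FAS, DDB2 and FDXR lie to the left in every panel that holds 1000 µM, GDF15 lies to the right in them, and all but 3 circles at 100 µM lie left of 0.

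The arrest genes did not move alike: PLK3 was not called at 1000 µM, and the antiproliferative gene BTG2 fell far more than CDKN1A. CDKN1A is the classical p53 target that encodes the cyclin-dependent kinase inhibitor p21. BTG2 was at 18.9, 19.7 and 16.9 CPM in the control libraries (replicates 1 to 3 throughout), 15.8 to 21.1 CPM (median 18.1) over the 12 libraries of the 4 lower doses, 13.2, 13.3 and 13.8 CPM at 100 µM and 3.5, 3.58 and 3.98 CPM at 1000 µM. Its 1000 µM libraries lay far below all others, and its 100 µM libraries lay between them and the controls without overlap. The log2 change was -0.46 ± 0.0876 at 100 µM (adjusted p = 0.000272) and -2.33 ± 0.096 at 1000 µM (adjusted p = 4.19e-13), the latter a 5.03-fold fall. Adding the set as a term gave -2.28 ± 0.157 at 1000 µM, while that at 100 µM, -0.44 ± 0.163, no longer passed.

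CDKN1A was at 127, 137 and 110.5 CPM in control, 131 to 160.3 CPM (median 139) over the lower doses, 109, 115 and 110.2 CPM at 100 µM and 86.7, 87.6 and 99.8 CPM at 1000 µM. All 12 lower dose libraries lay above the median control, and all 1000 µM libraries lay below the lowest control. Its log2 change was -0.16 ± 0.0849 at 100 µM, not called (95% interval -0.34 to 0.017), and -0.45 ± 0.0852 at 1000 µM (adjusted p = 0.000169), -0.56 ± 0.148 with the set as a term. Against 100 µM it was lower by 0.29 ± 0.0852 on the log2 scale (adjusted p = 0.00986), a call lost without replicate 1 of 1000 µM. An opposite-strand gene, DINOL, shares 4.79% of its exon bases, and use of strand in the counting is not given in the sources used here.

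GADD45A, a stress sensor that binds cell cycle and repair proteins, went down and part of the way back. It was at 53.3, 56.7 and 55.5 CPM in control, 46.6 to 61.6 CPM (median 53.9) over the lower doses, 28.1, 30.2 and 25.4 CPM at 100 µM and 36.9, 39 and 32.8 CPM at 1000 µM. The 3 groups did not overlap, with 1000 µM in the middle. Its log2 change was -0.98 ± 0.0958 at 100 µM (adjusted p = 1.46e-07), -0.61 ± 0.0949 at 1000 µM, and 0.37 ± 0.0957 between them (adjusted p = 0.00363); with the set as a term these were -0.99, -0.68 and 0.31, all called. The polo-like kinase PLK3 likewise was lower at 100 µM (-0.79 ± 0.132), but not with the set as a term (-0.56), and at 1000 µM stood at -0.056 ± 0.129, having risen by 0.73 from 100 µM (adjusted p = 0.000179). PLK2, a stress-induced kinase gene of the same family, was lower at both doses (-0.54 ± 0.129 and -0.41 ± 0.128) and at neither with the set as a term, and its call at 1000 µM was lost without control replicate 3.

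**Figure D4:**
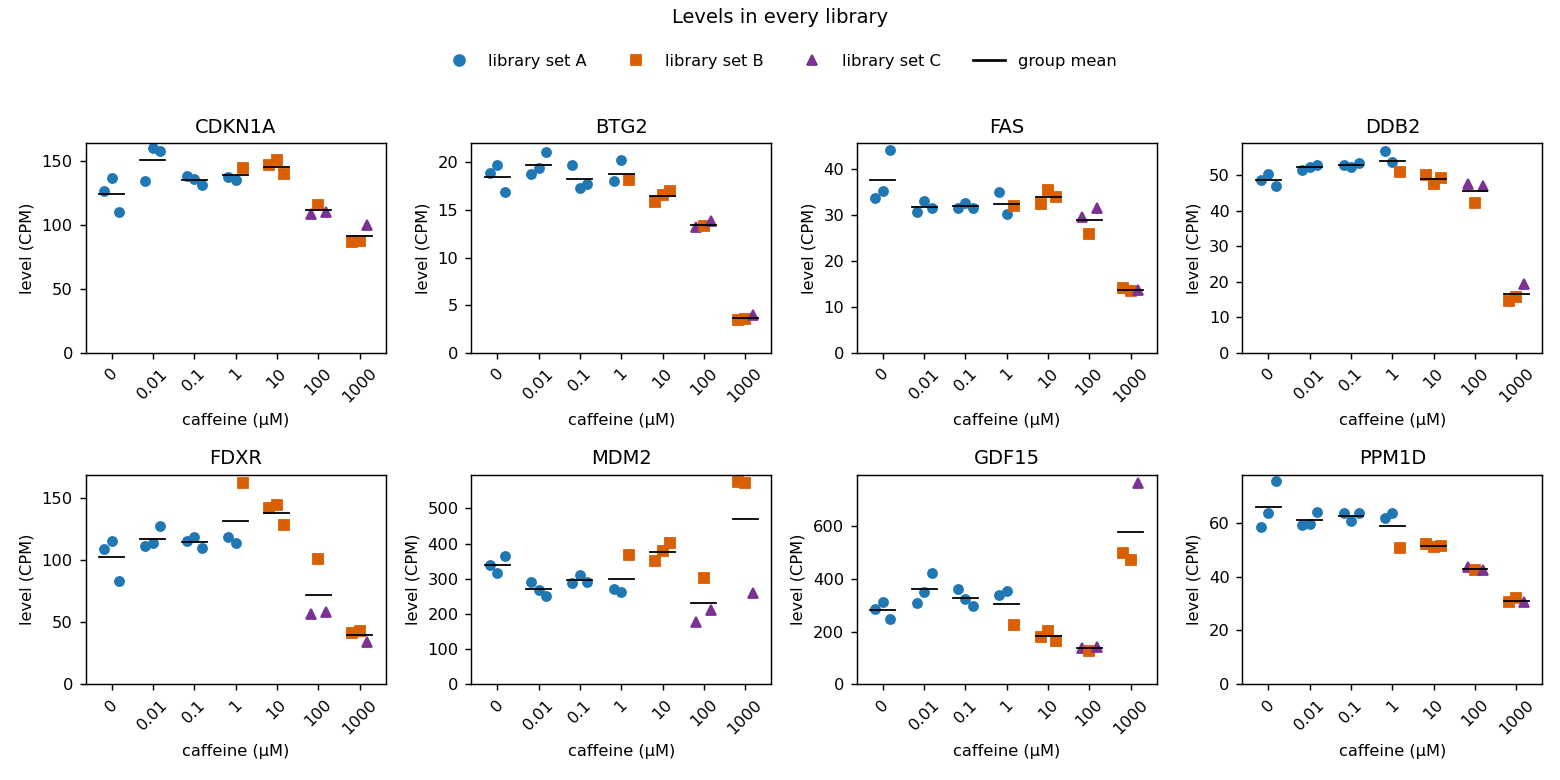
Level in CPM of 8 members in every library, by caffeine dose in µM (spaced evenly by group), with marker shape and colour for the library set and a bar for the group mean. BTG2, FAS and DDB2 drop at 1000 µM in all 3 libraries, MDM2 is high there in the set B pair and not in the set C library, and PPM1D steps down at 100 and again at 1000 µM.

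Among the apoptosis genes, the death receptor genes differed in direction: FAS fell, while TNFRSF10B, which encodes the TRAIL receptor DR5, rose. FAS was at 33.6, 35.1 and 44 CPM in control, 30.2 to 35.3 CPM (median 32.1) over the lower doses, 29.6, 25.8 and 31.4 CPM at 100 µM and 14.1, 13.5 and 13.6 CPM at 1000 µM. The 1000 µM libraries lay close together in both sets and below every other library. The log2 change was -1.45 ± 0.101 at 1000 µM, a 2.73-fold fall (adjusted p = 4.87e-10), and -1.46 ± 0.17 with the set as a term. At 100 µM it was -0.38 ± 0.0977 (adjusted p = 0.00377), not called with the set as a term (-0.43). ACTA2 on the opposite strand shares 8.93% of FAS exon bases.

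TNFRSF10B was at 224, 214 and 203 CPM in control, 205 to 265 CPM (median 230.4) over the lower doses, 161, 212 and 164 CPM at 100 µM and 306, 312 and 245 CPM at 1000 µM. Its 1000 µM libraries lay above every control, the set C library least so. It rose by 0.43 ± 0.104 on the log2 scale at 1000 µM (adjusted p = 0.00153; 0.38 ± 0.111 with the set as a term), by 0.69 from 100 µM, and by 0.24 from 10 µM inside set B (adjusted p = 0.00117). Its call as lower at 100 µM (-0.26 ± 0.104, adjusted p = 0.0498) was marginal and was lost with the set as a term and without any 1 of the 3 controls, among other libraries. The sister receptor gene TNFRSF10A stood at 0.044 ± 0.136 at 1000 µM, not called; its lower value at 100 µM (-0.38 ± 0.137) was lost with the set as a term and without control replicate 1 or 2 or 100 µM replicate 1 or 3. Its rise between the doses (0.43 ± 0.137) was lost without replicate 1 or 3 of 100 µM or replicate 1 or 2 of 1000 µM. Opposite-strand genes share 16.6% of TNFRSF10A exon bases.

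Of the members in the mitochondrial arm, BAX was called lower at 1000 µM against control. BAX, BBC3 and TRIAP1 were all lower at 1000 µM than at 10 µM inside set B. PMAIP1, a gene of the same arm described later, was higher at 1000 µM than in control. BAX, which permeabilises the outer mitochondrial membrane, was at 67.3, 71.9 and 61 CPM in control, 62.4 to 106 CPM (median 74.5) over the lower doses, 69.4, 63.6 and 61.9 CPM at 100 µM and 45.1, 44.8 and 34.3 CPM at 1000 µM. Its 1000 µM libraries lay below all others, the control and 100 µM libraries overlapped, and the highest lower dose values were those of set B. BAX fell by 0.69 ± 0.142 on the log2 scale at 1000 µM (adjusted p = 0.000375), by 1.18 ± 0.189 with the set as a term, and by 1.13 ± 0.0737 from 10 µM inside set B. BBC3, which encodes the BH3-only protein PUMA, was lower at 100 µM (-0.76 ± 0.204, adjusted p = 0.00507; -0.73 with the set as a term, adjusted p = 0.0431) but was not called at 1000 µM (-0.26 ± 0.201, 95% interval -0.68 to 0.16). In its 100 µM libraries BBC3 was at 5.7, 11 and 6 CPM, the set B library being the highest. TRIAP1 stood at -0.23 ± 0.142 at 1000 µM, not called, and at -0.66 ± 0.212 with the set as a term (adjusted p = 0.0199).

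PHLDA3, an inhibitor of AKT signalling, was at 32.6, 31.9 and 25.6 CPM in control, 29.1 to 43.4 CPM (median 34.5) over the lower doses, 29.9, 30.5 and 29.96 CPM at 100 µM and 12.8, 11.6 and 17.6 CPM at 1000 µM. Its 100 µM libraries lay inside the control range (0.002 ± 0.142, not called), and it fell by 1.10 ± 0.146 on the log2 scale at 1000 µM (adjusted p = 2.58e-06). A same-strand gene shares 19.1% of its exon bases. TP53INP1, a stress protein of autophagy and cell death, was at 116, 99.2 and 126 CPM in control, 82.3 to 117 CPM (median 97.8) over the lower doses, 42.7, 62.2 and 47.2 CPM at 100 µM and 61.2, 63.8 and 31.9 CPM at 1000 µM. Unlike PHLDA3, it was already down at 100 µM, by 1.17 ± 0.191 (adjusted p = 7.65e-05), and at 1000 µM stood at -1.12 ± 0.191. The set C library at 1000 µM was the lowest of all 21, and both changes held with the set as a term (-0.94 and -1.17). ZMAT3, an RNA-binding regulator of splicing, was lower at 100 µM (-0.52 ± 0.146) and at 1000 µM (-0.39 ± 0.146), the latter call being lost without control replicate 1 or 3 or replicate 3 of 1000 µM; with the set as a term both were called (-0.68 and -0.70). AEN, an apoptosis-enhancing nuclease, was called at neither dose (-0.29 ± 0.139 and -0.19 ± 0.139; 95% interval at 1000 µM -0.48 to 0.10) but was lower inside set B (-0.30 ± 0.0551, adjusted p = 0.000425).

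The repair genes fell as a group at 1000 µM, the damage recognition factors of nucleotide excision repair among them. DDB2, which detects ultraviolet lesions, was at 48.6, 50.3 and 47.1 CPM in control, 47.6 to 56.8 CPM (median 52.2) over the lower doses, 47.6, 42.2 and 47 CPM at 100 µM and 14.7, 15.8 and 19.4 CPM at 1000 µM. The 1000 µM libraries lay far below all others, and the 100 µM libraries overlapped the controls. Its log2 change was -0.10 ± 0.0853 at 100 µM (95% interval -0.27 to 0.083), -1.55 ± 0.0886 at 1000 µM (adjusted p = 3.34e-11), and -1.72 ± 0.0669 inside set B.

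XPC, its partner in damage recognition, was at 58.7, 57.4 and 53.5 CPM in control, 48.6 to 60.4 CPM (median 56.5) over the lower doses, 36.7, 41.1 and 33.8 CPM at 100 µM and 33, 31 and 28.9 CPM at 1000 µM. Its 100 µM libraries, unlike those of DDB2, all lay below the controls, and the 1000 µM libraries lay lower still. The log2 change was -0.60 ± 0.0869 there (adjusted p = 1.54e-05) and -0.87 ± 0.0874 at 1000 µM (adjusted p = 8.28e-08). Adding the set as a term, the 100 µM value, -0.23 ± 0.123, was not called and the 1000 µM value, -0.55 ± 0.116, was. The step between the doses (-0.26 ± 0.0874) was lost without replicate 2 of 100 µM or replicate 2 or 3 of 1000 µM, and opposite-strand genes, LSM3 among them, share 30.4% of XPC exon bases. POLH, the translesion polymerase eta, was at 26.4, 27.1 and 30.7 CPM in control, 26.5 to 36.1 CPM (median 29.5) over the lower doses, 22.5, 27.4 and 23.4 CPM at 100 µM and 16.2, 14 and 11.7 CPM at 1000 µM, and followed DDB2. It changed by -0.20 ± 0.108 at 100 µM, not called, and by -1.002 ± 0.11 at 1000 µM, a 2-fold fall (adjusted p = 2.52e-07). RRM2B, the p53-inducible subunit of ribonucleotide reductase, was lower at both doses, -0.83 ± 0.115 and -0.64 ± 0.115, and with the set as a term (-0.91 and -0.83).

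Between the library sets at 1000 µM the feedback genes differed unequally: set B stood above set C by 1.14 for MDM2, 0.99 for MDM4 and 0.039 for PPM1D in log2 CPM, and CCNG1 was at -0.018. MDM2 was at 339, 316 and 365 CPM in control, 250.5 to 402 CPM (median 291) over the lower doses, 179, 304 and 212 CPM at 100 µM and 576, 571 and 259.9 CPM at 1000 µM. At 1000 µM both set B libraries lay above every other library in the series, and the set C library lay below every control. MDM2 was not called at 1000 µM against control (0.46 ± 0.23, 95% interval -0.022 to 0.95, adjusted p = 0.095; 0.20 ± 0.173 with the set as a term). It was higher than at 100 µM (1.02 ± 0.232, adjusted p = 0.0018; 0.67 ± 0.104 with the set as a term), in set B by 0.92 and in set C by 0.42 in log2 CPM. Inside set B it was higher at 1000 than at 10 µM by 0.57 ± 0.0592 (adjusted p = 2.86e-06). Other genes, CPM on the opposite strand among them, share 9.21% of MDM2 exon bases.

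PPM1D, the phosphatase WIP1 that removes activating phosphates from p53 and ATM, was at 58.4, 63.8 and 75.5 CPM in control, 50.8 to 64.1 CPM (median 60.1) over the lower doses, 43.7, 42.5 and 42.6 CPM at 100 µM and 30.4, 32.2 and 30.5 CPM at 1000 µM. Its libraries lay close together at 100 and at 1000 µM, each group below every control: -0.62 ± 0.0914 at 100 µM (adjusted p = 2.04e-05) and -1.09 ± 0.0924 at 1000 µM, a 2.12-fold fall (adjusted p = 8.03e-09). The value at 1000 µM was called with the set as a term (-0.78 ± 0.14), and that at 100 µM was not (-0.31 ± 0.149). CCNG1, which encodes the MDM2-binding cyclin G1, was at 272, 302 and 390.3 CPM in control, 207 to 266 CPM (median 243) over the lower doses, 341, 266 and 335 CPM at 100 µM and 284, 306 and 298 CPM at 1000 µM. Control, 100 µM and 1000 µM libraries overlapped, and the lower doses lay below every control. Neither high dose was called (-0.035 ± 0.12 and -0.12 ± 0.12), and its rise inside set B (0.13 ± 0.0527, adjusted p = 0.0458) was lost without replicate 1 of 10 µM or replicate 2 of 1000 µM. MDM4 was called by edgeR in no comparison of all libraries, though DESeq2 called it in the joint test (75% of features); at 1000 µM its libraries were at 24.1, 24.6 and 12.2 CPM against 18.9, 15.3 and 18.5 CPM in control (0.21 ± 0.252, 95% interval -0.31 to 0.74), with the same high pair and the same low library as MDM2.

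Among the metabolism and other genes, GDF15 and SUSD6 were higher at 1000 µM and 4 were lower. GDF15, a secreted stress cytokine that other stress pathways also induce, was at 286, 311 and 249 CPM in control, 164 to 421 CPM (median 317) over the lower doses, 139, 128 and 140.5 CPM at 100 µM and 498, 472 and 762 CPM at 1000 µM. It was lowest of all doses at 100 µM, with libraries close together, and highest at 1000 µM, where every library exceeded every other library in the series. Its log2 change was -1.05 ± 0.181 at 100 µM (adjusted p = 0.000121), 1.03 ± 0.181 at 1000 µM (adjusted p = 8.1e-05) and 2.09 ± 0.186 between them, a 4.25-fold rise (adjusted p = 5.46e-08). With the set as a term the 1000 µM value was 1.505 ± 0.232 and that at 100 µM, -0.68 ± 0.233, was not called.

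FDXR, the mitochondrial ferredoxin reductase, was at 109, 115 and 83 CPM in control, 109.7 to 162 CPM (median 118) over the lower doses, 57, 101 and 58.6 CPM at 100 µM and 41.1, 43.1 and 34.3 CPM at 1000 µM. At 100 µM the set B library lay inside the control range and the set C pair below it. FDXR fell by 1.37 ± 0.188 on the log2 scale at 1000 µM (adjusted p = 5.38e-06; -1.68 ± 0.194 with the set as a term), while its call at 100 µM (-0.500 ± 0.184, adjusted p = 0.0327) was lost without control replicate 1 or 2 or 100 µM replicate 1 or 3. SPATA18, a gene of mitochondrial quality control, was at 17.9, 16.5 and 17.6 CPM in control, 14.5 to 21.1 CPM (median 16.1) over the lower doses, 16.6, 17.1 and 16.7 CPM at 100 µM and 8.24, 8.04 and 7.46 CPM at 1000 µM. Its 1000 µM libraries lay below all others. It was not called at 100 µM (-0.041 ± 0.0792) and fell by 1.13 ± 0.0819 on the log2 scale at 1000 µM (adjusted p = 8.96e-10).

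SESN1, a sestrin that restrains mTORC1 and oxidative stress, was at 44.7, 41.3 and 51.8 CPM in control, 38.3 to 52.9 CPM (median 43) over the lower doses, 39.1, 39.2 and 37.5 CPM at 100 µM and 23.9, 24.7 and 22.1 CPM at 1000 µM. The 1000 µM libraries lay well below all others. SESN1 fell by 0.96 ± 0.0845 on the log2 scale at 1000 µM (adjusted p = 1.23e-08), while its call at 100 µM (-0.25 ± 0.0832) was lost with the set as a term and without control replicate 3 or 100 µM replicate 3. TIGAR, a fructose bisphosphatase that turns sugar away from glycolysis, was at 29, 30.04 and 39.4 CPM in control, 25.6 to 30.9 CPM (median 27.9) over the lower doses, 13.6, 15 and 14.1 CPM at 100 µM and 15.9, 17.5 and 9.04 CPM at 1000 µM. Its libraries at 100 and at 1000 µM overlapped each other and lay below all others. It was already down at 100 µM (-1.20 ± 0.163, adjusted p = 7.79e-06), with a difference of -0.002 ± 0.164 from there to 1000 µM, and both doses were called with the set as a term (-0.90 and -1.09). Of TIGAR exon bases 45.6% are shared with other genes, most of any member. TP53I3, a quinone oxidoreductase gene, was lower at 100 µM (-0.57 ± 0.204; -0.18 and not called with the set as a term) and not called at 1000 µM (-0.35 ± 0.204), and the 100 µM call was lost without any 1 control or without 100 µM replicate 1 or 3. SUSD6 was higher at 1000 µM by 0.26 ± 0.109 (adjusted p = 0.0449), a call lost without control replicate 2 or 3 or 1000 µM replicate 1 or 2, among others, and 0.082 with the set as a term.

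Of 17 tested relatives, kinases, acetylases and other partners of p53, 5 were higher and 0 lower at 100 µM, and 6 were higher and 2 lower at 1000 µM. Over all features these shares were 23.6% and 22.9% at 100 µM and 28.5% and 29.1% at 1000 µM. The median log2 changes were 0.17 and 0.12. In the fit with the set as a term 2 and 5 were higher and none was lower, so both falls were lost. That fit called 9.14% of all features higher and 8.21% lower at 100 µM, and 18.2% and 19.8% at 1000 µM. HIPK2, a kinase that phosphorylates p53, was at 124, 99.4 and 98.6 CPM in control and 313, 315 and 179.8 CPM at 1000 µM, a log2 change of 1.33 ± 0.23 (adjusted p = 9e-05; 1.32 ± 0.263 with the set as a term). SIRT1, a deacetylase of p53, was at 22.4, 21.3 and 26.1 and 53.2, 53.9 and 53.8 CPM, 1.21 ± 0.0889 (adjusted p = 1.1e-09), with its 1000 µM libraries close together. The p53 relative TP73 was lower at 1000 µM (-0.75 ± 0.188; -0.71 and not called with the set as a term), its libraries at 2.91, 2.2 and 4.48 CPM against 5.62, 6.13 and 4.18 CPM in control. At 100 µM TP73 was higher than in every control, at 10.2, 10.2 and 9.49 CPM (0.90 ± 0.178, adjusted p = 0.000414; 0.87 and not called with the set as a term). PPP1R13L, which encodes the p53 inhibitor iASPP, was at 14.4, 12.4 and 10.1 CPM in control and 4.06, 5.03 and 8.83 CPM at 1000 µM, where it was lower (-1.06 ± 0.225; -0.65 and not called with the set as a term).

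Of another 48 tested p53 targets, outside the 30, 8 were higher and 18 lower at 100 µM, and 6 were higher and 24 lower at 1000 µM. Over all features the shares were 23.6% higher and 22.9% lower at 100 µM, and 28.5% and 29.1% at 1000 µM. Their median log2 change was -0.21 at 100 µM and -0.34 at 1000 µM. With the set as a term 2 were higher and 14 lower at 100 µM, and 5 were higher and 18 lower at 1000 µM, against 9.14% and 8.21% of features at 100 µM and 18.2% and 19.8% at 1000 µM. PIDD1, a death domain protein that activates caspase-2, was at 36.4, 36.7 and 25.3 CPM in control and 7.6, 7.58 and 10.8 CPM at 1000 µM, a 3.81-fold fall (-1.93 ± 0.162, adjusted p = 6.98e-09). TRIM22, an interferon-inducible target, fell by 1.77 ± 0.111 on the log2 scale (adjusted p = 1.07e-10), from 8.46, 7.87 and 9.13 to 2.45, 2.34 and 2.65 CPM. PMAIP1, which encodes the BH3-only protein NOXA, rose by 2.21 ± 0.257 (adjusted p = 5.24e-07) from the low level of 0.642, 0.493 and 0.383 CPM in control to 2.3, 2.34 and 2.49 CPM at 1000 µM. ATF3, a stress transcription factor that other pathways also induce, rose by 1.64 ± 0.146 (adjusted p = 1.42e-08), from 3.15, 3.76 and 3.22 to 10.3, 10.2 and 11.3 CPM, after a lower value at 100 µM (-0.44 ± 0.152, adjusted p = 0.0234; -0.38 and not called with the set as a term). GDF15 and ATF3 thus had the same order of doses, 100 µM below control and 1000 µM above it, in comparisons that share their controls.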

How the data were processed

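Whole-number read counts per feature were deposited by the authors without normalization, per the file headers. The submitters' processing notes name HISAT2, DESeq2 and GRCh38 without roles or versions; the annotation, filters and use of strand are not given in the sources used here. Poly(dT) beads and a SmartScribe reverse transcription kit were used, per the labels' protocols. Groups came from the doses in the sample titles. Of 37637 features, 32937 carry Ensembl identifiers and 4700 are unannotated loci, and 21 other per-sample columns stayed unused. Symbols, coordinates and exon lengths came from GENCODE release 29 (GRCh38); 66.5% of identifiers have the same version there.

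Features passing edgeR's filterByExpr (17951, all 30 members among them) were scaled by TMM and fitted with edgeR 4.0.16 in R 4.3.3, by the robust quasi-likelihood F-test, with a mean per group over all 21 libraries and Benjamini-Hochberg adjustment over all features tested. Tests were 2-sided and called at an adjusted p of 0.05. Levels are TMM-scaled CPM, and 95% intervals are t intervals from the fit's SE. Library sets came from average linkage on centred log2 counts (offset 1) of 13 mitochondrial mRNAs, at the number of sets with the highest mean silhouette. DESeq2 1.42.0 was an alternative. Tested on simulated data of 17951 genes, the fit of 1000 µM against control recovered 67 of 100 genes changed by 1 log2 unit and 84 of 100 changed by 2, with 11 false calls; for 100 µM against control these were 65, 86 and 6. The simulated libraries had no library sets and few changed genes, unlike the real ones, so these rates may not hold there. Counts are of reads, so they can include copies of 1 molecule.

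Library values (a range and median over the lower doses, and control and 1000 µM libraries for genes outside the 30) are given, by rule, for the members with the smallest joint-test p in each role (up to 3, or 5 for apoptosis and for metabolism and other), for CDKN1A and MDM2, and, in each of the other lists, for the 2 called genes with the largest rise and the 2 with the largest fall at 1000 µM; values of BBC3 and MDM4 were added after they were seen. The members, roles, lists and library sets were chosen with earlier results of these data known. TP63 and TP53I11 were too low to test, PECAM1 and KDR were not analysed here, and 1 gene listed with the partners is not reported here.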

Additional observations from a re-analysis of the deposited data

How the results depend on the processing

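Of 30 members the fit with the set as a term called 3 at 0.01 µM (RRM2B, CCNG1 and ZMAT3, all lower), 1 at 1 µM (RRM2B, lower), 0 at 10 µM and 7 at 100 µM, where the fit by group means called 0, 0, 6 and 18; of all features it called 3.02%, 0.629%, 0.0279% and 17.3%. At 10 µM it turned BAX to -0.014 and TRIAP1 to -0.007. DESeq2 called 3 members at 0.01 µM and 1 at 1 µM (2.19% and 2.37% of features), and without a filter on low counts 3 were called at 10 µM (4.98%). Of the other pathway genes, the set term called 3 at 0.01 µM, 0 at 10 µM and 18 at 100 µM, against 0, 12 and 31 by group means. Of these genes DESeq2 called 2 at 0.01 µM and 2 at 1 µM, and a mean of at least 5 CPM called 1 at 1 µM (0.513% of features), against 0 at either dose by group means. Set A alone, an alternative chosen after seeing the data, called no member at 0.01, 0.1 or 1 µM.

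With each library left out in turn, members called ran from 0 to 0 at each of the 3 lowest doses, from 1 to 9 (10 µM against control), 13 to 21 (100 µM), 18 to 21 (1000 µM), 17 to 22 (between the highest doses), 24 to 25 (inside set B) and 27 to 30 (joint test). From 10 µM on, these fits called 5.63 to 19.1%, 38.6 to 49.4%, 50.4 to 59.4%, 34.3 to 50.7%, 56.9 to 67% and 67.4 to 76.9% of features in the same order, and at most 0.647% at the 3 lowest doses. Where 1 library remained in a group, it was assumed to vary like the other groups. For single genes, 2131 values were computed under alternatives for 89 results: 1997 kept their side of the threshold, 132 fell short of it and 2 reversed. Among members at 1000 µM against control, the calls of PLK2, SUSD6 and ZMAT3 were lost under at least 1 alternative and no others were.

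Replicate numbers did not pair the libraries: over 21 pairs of groups the mean correlation of same-numbered deviations ran from -0.11 to 0.15. With the replicate block, members called were 5 at 10 µM, 17 at 100 µM, 20 at 1000 µM, 20 between the highest doses and 29 in the joint test, and inside set B 25, a block fit added after seeing the data. Of all features that fit called 12.7%, 45.1%, 56.6%, 42.7%, 71.7% and 65.9% in the same order. No control library lies outside set A, so set A is linked to set B only through the 1 µM group, which holds a single set B library, and no values here bear on what the sets are.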
